A study of Mus musculus with 8 samples.

Results

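The genes described here are 8 genes of antigen presentation by MHC class II, the pathway by which dendritic cells show peptides to CD4+ T cells. They are H2-Aa, H2-Ab1 and H2-Eb1, which encode chains of the class II molecules I-A and I-E, Cd74, which encodes the invariant chain, H2-DMa, H2-Oa and H2-Ob, which encode chains of the peptide-loading molecule DM and of its partner DO, and Ciita, which encodes the class II transactivator. Each gene was read from the probe set whose annotation names that symbol alone, the brightest on average where there were several. Each of the 8 genes had exactly 1, out of 19938 genes with such a probe set on the array. The 6 H2 genes lie on chromosome 17, Cd74 on chromosome 18 and Ciita on chromosome 16.

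RNA came from 4 populations of dendritic cell progenitors, sorted out of the marrow of mouse leg and hip bones and hybridised to 2 Affymetrix arrays each. They were Id2-GFP+ pre-CD8 cells, Id2-GFP- pre-CD8 cells, Id2-GFP+ CDP cells and Id2-GFP- CDP cells. CDP is the common dendritic cell progenitor, pre-CD8 is a progenitor that the labels define no further, and Id2-GFP is green fluorescence from an Id2-IRES-GFP reporter, in which the green protein is made from the Id2 message itself. Titles and sources give that reporter for all 8 samples, but the genotype field gives heterozygous Id2-IRES-GFP for both Id2-GFP- CDP samples and heterozygous Zbtb46-GFP for the other 6, so in every comparison with Id2-GFP- CDP the genotype entries differ as well and the 2 cannot be told apart. The gates, the strain beyond the reporter, the age of the mice and whether replicates came from separate animals are not stated. The p-values therefore weigh a difference only against the spread between the 2 arrays of a group, pooled over the 4 groups. That spread is drawn toward that of genes of like intensity, and it may be technical. Id2 was higher on all 4 Id2-GFP+ arrays, at 9.26 to 10.99 log2, against 5.14 to 7.18 on the 4 Id2-GFP- arrays, and Zbtb46, a gene of conventional dendritic cells, read 6.96 to 8.04 against 5.48 to 6.13. The progenitor receptor gene Flt3 read 10.73 to 12.58 log2 on all 8 arrays, and the 9 progenitor markers measured had a summed intensity of 7157 to 9546 in Id2-GFP+ pre-CD8 cells, 18019 to 22397 in Id2-GFP- pre-CD8 cells, 8319 to 12914 in Id2-GFP+ CDP and 13169 to 17611 in Id2-GFP- CDP.

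Class II molecules are pairs of an alpha and a beta chain that assemble in the endoplasmic reticulum around the invariant chain, which blocks the peptide groove and leads the complex to endosomes. There the invariant chain is cut by cathepsins, DM removes the last fragment of it and lets peptides exchange, and DO, a pair of the H2-Oa and H2-Ob chains known mainly from B cells and some dendritic cells, restrains DM. Transcription of these genes depends on the transactivator encoded by Ciita, which does not bind DNA itself but docks on a complex of RFX, CREB and NF-Y proteins at a conserved promoter module of an X box followed by a Y box.

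Letters of this module were found in order in the promoters of 4 of the genes, which are shown. They are RefSeq windows on GRCm38.p6, each 300 bases long, from 250 bases before the start site to 50 after it, written 5′ to 3′ along the gene. Capitals mark GCAAC, the start of the X box, and ATTGG, which is the Y box core CCAAT read on the other strand. H2-Aa is at chr17:34287774-34288073 on the minus strand, and on the plus strand are H2-Eb1 at chr17:34305617-34305916, H2-Oa at chr17:34092129-34092428 and H2-Ob at chr17:34238655-34238954.
H2-Aa: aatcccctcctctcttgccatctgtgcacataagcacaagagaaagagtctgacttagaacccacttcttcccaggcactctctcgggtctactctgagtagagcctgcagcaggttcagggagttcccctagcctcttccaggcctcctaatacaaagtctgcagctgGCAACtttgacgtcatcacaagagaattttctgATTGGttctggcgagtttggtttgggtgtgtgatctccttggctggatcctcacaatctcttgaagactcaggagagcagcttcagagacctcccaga
H2-Eb1: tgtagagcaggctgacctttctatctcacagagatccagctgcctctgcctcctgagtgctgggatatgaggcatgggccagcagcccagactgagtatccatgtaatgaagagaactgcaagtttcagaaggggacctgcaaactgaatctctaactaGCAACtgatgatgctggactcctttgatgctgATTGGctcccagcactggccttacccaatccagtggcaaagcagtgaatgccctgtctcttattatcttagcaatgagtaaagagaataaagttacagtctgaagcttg
H2-Oa: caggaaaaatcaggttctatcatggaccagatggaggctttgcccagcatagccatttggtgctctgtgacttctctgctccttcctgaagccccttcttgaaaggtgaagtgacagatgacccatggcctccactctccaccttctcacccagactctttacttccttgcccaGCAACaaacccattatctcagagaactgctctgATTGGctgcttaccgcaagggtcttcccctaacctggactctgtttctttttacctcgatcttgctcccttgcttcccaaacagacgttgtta
H2-Ob: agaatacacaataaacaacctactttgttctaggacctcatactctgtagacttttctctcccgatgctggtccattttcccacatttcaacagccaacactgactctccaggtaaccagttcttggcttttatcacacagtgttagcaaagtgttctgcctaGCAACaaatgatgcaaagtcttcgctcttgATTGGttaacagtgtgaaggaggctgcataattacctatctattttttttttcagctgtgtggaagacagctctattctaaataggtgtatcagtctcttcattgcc

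In these windows GCAAC began between positions -91 and -76 from the start site and ATTGG between positions -59 and -43, with 28 bases between them in H2-Aa, 27 in H2-Eb1, 28 in H2-Oa and 25 in H2-Ob. Searched on both strands with 15 to 30 bases between the words, the ordered pair was present in 274 of 32851 promoter windows of the same length, 0.834%. Alone, each word is common, with CCAAT in 37.4% and GCAAC in 35.2% of windows. GCAAC and the pair were chosen after these promoters had been read, so their presence here is a description of how they were chosen. A longer X box pattern of 10 letters, searched first and present in 2.97% of windows, matched at the marked GCAAC in H2-Eb1. In H2-Oa it matched at position -140, away from the marked letters at -76, and it matched in neither H2-Aa nor H2-Ob. An interferon-type element, present in 3.44% of windows, matched in 0 of the genes. For H2-DMa the table holds 2 windows, and the pair was in neither of them. The E box CAGGTG, which occurs in 20.2% of windows, was in 1 of the 6 windows of the 5 genes matched, a window of H2-DMa. H2-Ab1, Cd74 and Ciita had no entry. A match describes letters and is not evidence of binding, and a missing match says only that these letters are not in this window.

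The patterns were not the same for all genes, and the DM and DO genes differed from the rest in range or order. H2-Aa, H2-Ab1, H2-Eb1, Cd74 and Ciita followed one order of levels, lowest in Id2-GFP- CDP, then Id2-GFP- pre-CD8, then Id2-GFP+ CDP, and highest in Id2-GFP+ pre-CD8. H2-Oa had that order over a narrower range, H2-DMa varied by less than 1 log2 unit over all arrays, and H2-Ob was highest in Id2-GFP- pre-CD8. Levels below are log2 intensities of 1 probe set, so they are compared between arrays and not between genes. In bulk RNA, fewer cells that express a gene and less RNA per cell cannot be told apart.

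**Figure D1:**
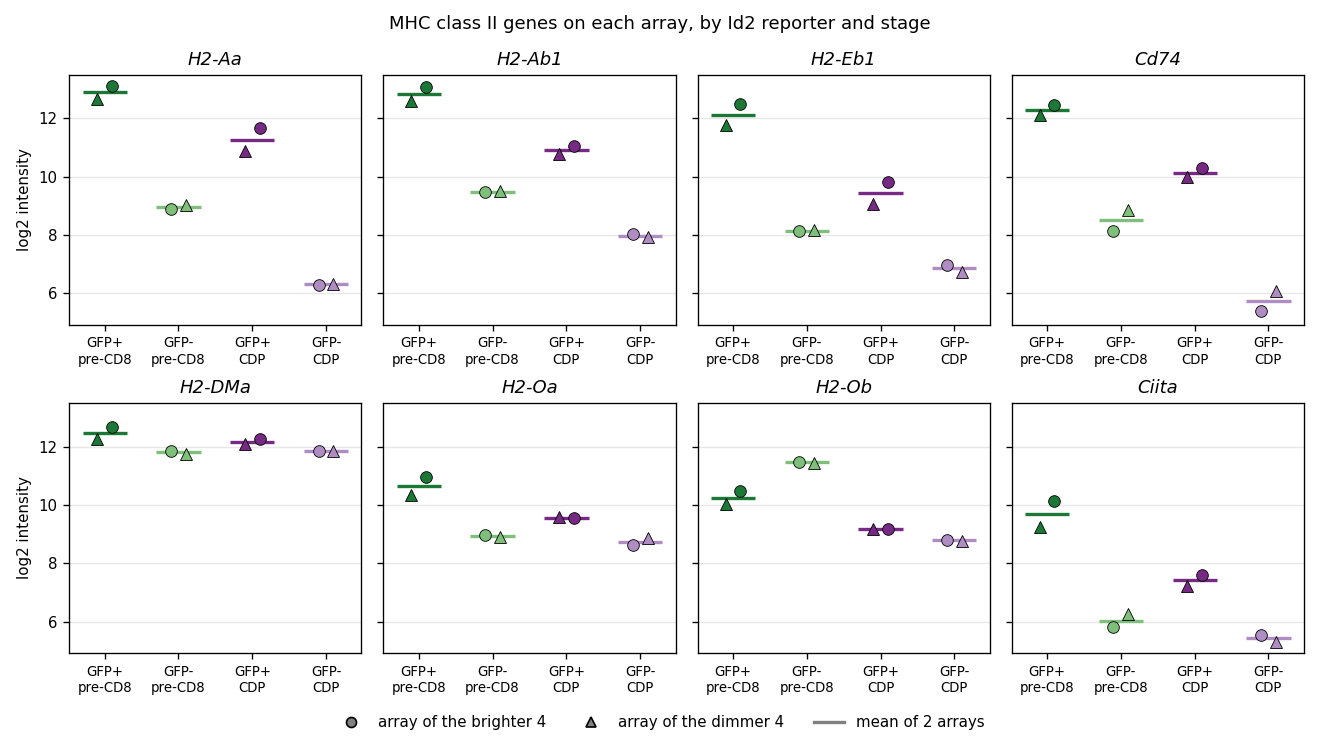
Log2 intensity of the 8 class II genes on each array, with 1 panel per gene, a point per array (circles for the 4 arrays of higher mean intensity, triangles for the 4 of lower) and a bar for the mean of the 2 arrays of a group. H2-Aa runs from 6.28 to 13.11 while H2-DMa stays between 11.75 and 12.66, and H2-Ob alone is highest in Id2-GFP- pre-CD8.

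H2-Aa, the alpha chain of I-A, read 12.68 and 13.11 in Id2-GFP+ pre-CD8 cells, 8.88 and 9.03 in Id2-GFP- pre-CD8 cells, 10.90 and 11.66 in Id2-GFP+ CDP, and 6.28 and 6.34 in Id2-GFP- CDP. No 2 groups overlapped, and every step from one group to the next was wider than the gap between the 2 arrays of a group. H2-Ab1, the beta chain that pairs with it, read 12.59 and 13.07 in Id2-GFP+ pre-CD8 cells, 9.47 and 9.52 in Id2-GFP- pre-CD8 cells, 10.77 and 11.06 in Id2-GFP+ CDP, and 8.03 and 7.93 in Id2-GFP- CDP. Again the 4 groups were separate, with the lowest pair in Id2-GFP- CDP. H2-Eb1, the beta chain of I-E, read 11.78 and 12.48 in Id2-GFP+ pre-CD8 cells, 8.15 and 8.16 in Id2-GFP- pre-CD8 cells, 9.07 and 9.82 in Id2-GFP+ CDP, and 6.99 and 6.73 in Id2-GFP- CDP. Its order was the same, with wider gaps between the 2 arrays in both Id2-GFP+ groups.

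Cd74, the chaperone of the class II chains, read 12.12 and 12.48 in Id2-GFP+ pre-CD8 cells, 8.16 and 8.85 in Id2-GFP- pre-CD8 cells, 9.99 and 10.29 in Id2-GFP+ CDP, and 5.40 and 6.09 in Id2-GFP- CDP. It spanned 7.08 log2 units from the lowest to the highest array, the widest span of the 8 genes. Ciita, whose product switches on the class II genes, read 9.25 and 10.14 in Id2-GFP+ pre-CD8 cells, 5.80 and 6.27 in Id2-GFP- pre-CD8 cells, 7.22 and 7.61 in Id2-GFP+ CDP, and 5.55 and 5.31 in Id2-GFP- CDP. Both Id2-GFP- groups were low for Ciita and lay close together, and the 2 arrays of Id2-GFP+ pre-CD8 lay further apart than those of any other group among the 8 genes.

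H2-DMa, the alpha chain of the DM molecule that exchanges peptides, read 12.26 and 12.66 in Id2-GFP+ pre-CD8 cells, 11.87 and 11.75 in Id2-GFP- pre-CD8 cells, 12.10 and 12.25 in Id2-GFP+ CDP, and 11.87 and 11.85 in Id2-GFP- CDP. It was nearly level across the groups, and the 2 Id2-GFP- groups overlapped. H2-Oa, the alpha chain of DO, read 10.33 and 10.95 in Id2-GFP+ pre-CD8 cells, 8.99 and 8.92 in Id2-GFP- pre-CD8 cells, 9.58 and 9.54 in Id2-GFP+ CDP, and 8.62 and 8.87 in Id2-GFP- CDP. The Id2-GFP+ arrays were all above the Id2-GFP- arrays, within a total span of 2.34 log2 units. H2-Ob, the beta chain of DO, read 10.03 and 10.47 in Id2-GFP+ pre-CD8 cells, 11.49 and 11.44 in Id2-GFP- pre-CD8 cells, 9.16 and 9.16 in Id2-GFP+ CDP, and 8.81 and 8.78 in Id2-GFP- CDP. So the 2 chains of DO were highest in different populations, and in neither case did the top group overlap another.

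The 8 arrays also form a brighter and a dimmer set of 4 by mean intensity, at 461 to 478 and 402 to 414 on the linear scale, each set holding 1 array of every group. Deviations from the group means ran together within a set, with correlations across all genes of 0.626 to 0.713 for the 6 pairs of groups, and the labels name no batch that matches it. Where this set as a block changes the call on one of the 8 genes, that is given beside it, and for the lists of the pathway in the 2 reporter comparisons the genes or counts that change under it follow those without it. The sets were defined from the arrays and not from the labels, so the block is an alternative and the fit without it gives the main calls.

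In pre-CD8, reporter-positive cells had far more RNA of the class II chains, the invariant chain and the transactivator than reporter-negative cells. Tested with limma over all 19938 genes with Benjamini-Hochberg adjustment and a threshold of 0.05, H2-Eb1 was higher in Id2-GFP+ pre-CD8 cells than in Id2-GFP- pre-CD8 by 3.98 ± 0.32 (standard error, n = 2 each; adjusted p = 0.000632), a 15.7-fold difference. H2-Aa was higher by 3.94 ± 0.28 (adjusted p = 0.000465), Cd74 by 3.80 ± 0.32 (adjusted p = 0.000756), Ciita by 3.66 ± 0.32 (adjusted p = 0.000858) and H2-Ab1 by 3.34 ± 0.22 (adjusted p = 0.000453). H2-Oa rose less, by 1.69 ± 0.24 (adjusted p = 0.00538). H2-Ob went the other way and fell by 1.21 ± 0.20 (adjusted p = 0.0105), which is 0.431 of its level in Id2-GFP- pre-CD8. The difference of H2-DMa was 0.64 ± 0.17 and missed the threshold (adjusted p = 0.0627), which it passed with the intensity set as a block (adjusted p = 0.000224).

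Of the 8 genes 6 were thus called higher, against 3.57% of all genes, and 1 lower, against 2.7%. Under the block all 8 passed, 7 higher and 1 lower, against 24.2% of all genes in either direction. Both Id2-GFP+ arrays were above both Id2-GFP- arrays for 7 genes and below them for 1, where 19.0% and 21.5% of all genes stood so. The median of the 8 differences was 3.50, and that over all genes was -0.01. The call on H2-Ob was lost without either Id2-GFP- pre-CD8 array or without replicate 1 of Id2-GFP+ pre-CD8, with adjusted p up to 0.0739, while its difference stayed between -1.44 and -0.99. The other 6 calls held without any single array.

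In CDP the chains, Cd74 and Ciita were again higher in reporter-positive cells, while the DM and DO genes did not pass the threshold. H2-Aa was higher in Id2-GFP+ CDP than in Id2-GFP- CDP by 4.97 ± 0.28 (adjusted p = 0.00063), Cd74 by 4.40 ± 0.32 (adjusted p = 0.00101) and H2-Ab1 by 2.93 ± 0.22 (adjusted p = 0.00101). H2-Eb1 was higher by 2.58 ± 0.32 (adjusted p = 0.0132) and Ciita by 1.98 ± 0.32 (adjusted p = 0.0442). The differences of H2-Oa, H2-Ob and H2-DMa were 0.82 ± 0.24, 0.37 ± 0.20 and 0.32 ± 0.17, with adjusted p of 0.446, 1.00 and 1.00. In Id2-GFP- CDP Cd74 and Ciita read below the arrays' medians of 6.12 to 6.27 and H2-Aa close above them, and no detection call was used, so differences from this group may be understated and no fold is given. Blocking on the set, H2-Oa and H2-DMa passed (adjusted p = 0.0174 and 0.0468).

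The count in CDP was 5 of 8 genes higher, against 0.597% of all genes, and 0 lower, against 0.0%. Under the block it was 7 higher, against 3.69%, and 0 lower, against 4.17%. The median difference of the 8 genes was 2.28, and that over all genes was 0.00. The calls on H2-Aa, H2-Ab1 and Cd74 held without any single array. H2-Eb1 lost its call without either Id2-GFP- CDP array or without replicate 2 of Id2-GFP+ CDP, with adjusted p up to 0.0958. Ciita, close to the threshold, lost its call without any one of 6 arrays, those of Id2-GFP+ CDP, Id2-GFP- CDP and Id2-GFP- pre-CD8, with adjusted p up to 0.274 and a difference between 1.79 and 2.18.

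**Figure D2:**
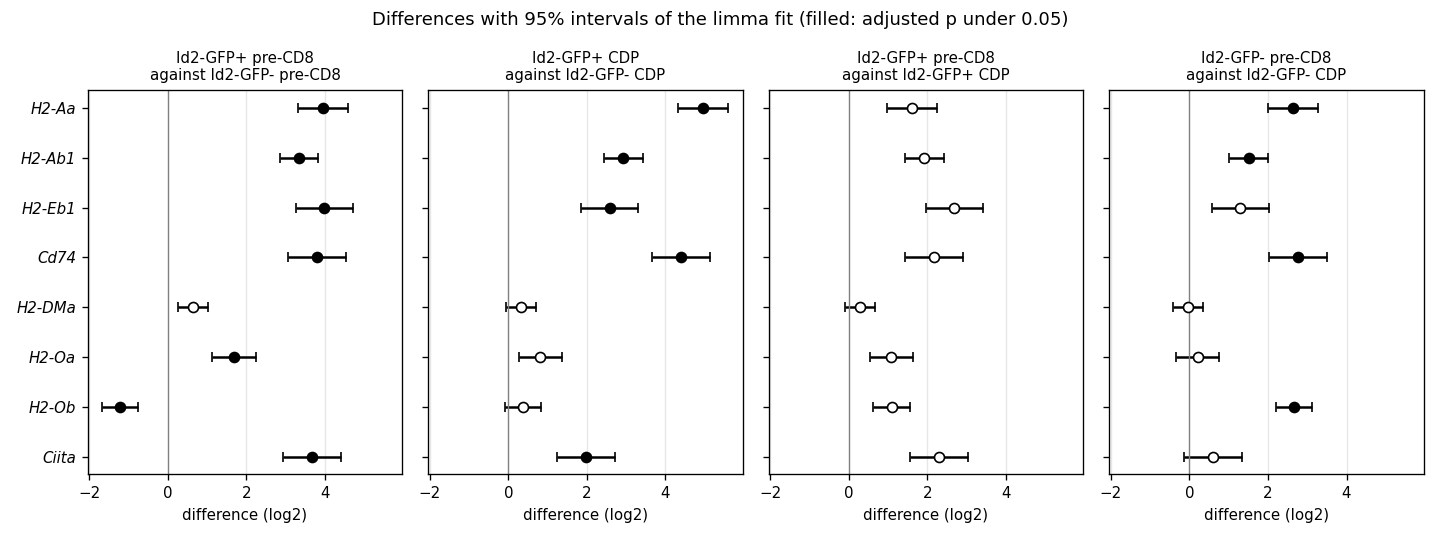
Differences in log2 intensity of the 8 class II genes in 4 comparisons, with 95% intervals of the limma fit; filled points have an adjusted p under 0.05. Chains, Cd74 and Ciita differ by 1.98 to 4.97 between reporter classes, H2-DMa by 0.64 at most, and H2-Ob is below 0 only in the first panel.

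Among reporter-negative cells, pre-CD8 had more RNA of some class II genes than CDP, and Ciita did not pass. Cd74 was higher in Id2-GFP- pre-CD8 cells than in Id2-GFP- CDP by 2.75 ± 0.32 (adjusted p = 0.00638), H2-Ob by 2.67 ± 0.20 (adjusted p = 0.00126), H2-Aa by 2.65 ± 0.28 (adjusted p = 0.00406) and H2-Ab1 by 1.51 ± 0.22 (adjusted p = 0.0143). The difference of H2-Eb1 was 1.29 ± 0.32 (adjusted p = 0.113; 0.00053 with the set as a block). Ciita differed by 0.61 with a 95% interval of -0.13 to 1.34 (adjusted p = 0.756; 0.163 with the block), H2-Oa by 0.21 with an interval of -0.35 to 0.76, and H2-DMa by -0.05 with an interval of -0.43 to 0.33. Ciita read near or below the arrays' medians in both groups, so its difference may be understated. The 4 genes called higher compare with 1.03% of all genes, and 7 of 8 had both pre-CD8 arrays above both CDP arrays, as did 15.5% of all genes. H2-Ab1 lost its call without any one of the 4 arrays compared, with adjusted p up to 0.127.

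Among reporter-positive cells every one of the 8 genes had both Id2-GFP+ pre-CD8 arrays above both Id2-GFP+ CDP arrays, where 8.94% of all genes stood so, but 0 of them passed the threshold, as did 0.0% of all genes. The sizes were 2.69 ± 0.32 for H2-Eb1, 2.29 ± 0.32 for Ciita, 2.16 ± 0.32 for Cd74, 1.92 ± 0.22 for H2-Ab1, 1.62 ± 0.28 for H2-Aa, 1.09 ± 0.20 for H2-Ob, 1.08 ± 0.24 for H2-Oa and 0.28 ± 0.17 for H2-DMa. The smallest adjusted p was 0.0577, for H2-Eb1 and H2-Ab1. At an unadjusted p under 0.05, 7 of the 8 passed, as did 643 of all genes (3.22%), with H2-DMa the exception. With the set as a block the same 7 passed the adjusted threshold as higher, against 0.973% of all genes.

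The intermediate place of the 2 middle groups was tested too. Id2-GFP- pre-CD8 was below Id2-GFP+ CDP in H2-Aa by a difference of -2.32 ± 0.28 (adjusted p = 0.00334), in Cd74 by -1.64 ± 0.32 (adjusted p = 0.0244), in H2-Ab1 by -1.42 ± 0.22 (adjusted p = 0.00845) and in Ciita by -1.38 ± 0.32 (adjusted p = 0.0499). H2-Eb1, at -1.29 ± 0.32, did not pass (adjusted p = 0.0611). H2-Ob was higher in Id2-GFP- pre-CD8, by 2.30 ± 0.20 (adjusted p = 0.00108). These 4 lower calls compare with 2.81% of all genes and the 1 higher call with 2.08%. The call on Ciita was lost without any one of 6 arrays (adjusted p up to 0.275), that on Cd74 without replicate 1 of Id2-GFP- pre-CD8 or without any one Id2-GFP+ CDP array (up to 0.147), and that on H2-Ab1 without either Id2-GFP- pre-CD8 array (up to 0.0523). H2-Eb1 passed without replicate 1 of Id2-GFP+ CDP (adjusted p = 0.046), after quantile normalization, with the filter on dim genes, and under the block (adjusted p = 0.000303). Under it H2-Oa, at -0.61, and H2-DMa, at -0.36, passed too (adjusted p = 0.0269 and 0.0100).

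Across both axes, Id2-GFP+ pre-CD8 was above Id2-GFP- CDP in 7 of the 8 genes, against 1.39% of all genes. H2-Aa was higher by 6.58 ± 0.28 (adjusted p = 0.000118) and Cd74 by 6.55 ± 0.32 (adjusted p = 0.000169), while H2-Ob was higher by 1.45 ± 0.20 (adjusted p = 0.0126) and H2-DMa, at 0.60 ± 0.17, did not pass (adjusted p = 0.169; 0.000845 with the set as a block). The call on H2-Ob was lost without replicate 2 of Id2-GFP+ pre-CD8 or without any one Id2-GFP- CDP array (adjusted p up to 0.121). That on H2-Oa (1.90 ± 0.24, adjusted p = 0.00878) was lost without Id2-GFP+ pre-CD8 replicate 2 or replicate 1 of Id2-GFP- CDP (up to 0.0974).

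Whether the reporter difference itself changed with the stage was tested as an interaction, the difference in pre-CD8 minus that in CDP. In the fit without a block 0 of the 8 genes passed, against 0.145% of all genes, and 5 had an unadjusted p under 0.05, against 6.15%. Ciita had the largest positive value, 1.68 ± 0.45 (adjusted p = 0.315), followed by H2-Eb1 with 1.39 ± 0.45 (adjusted p = 0.445). H2-Aa had the opposite sign, -1.03 ± 0.39 (adjusted p = 0.629), as did H2-Ob with -1.58 ± 0.29 (adjusted p = 0.109). With the set as a block these 4 passed, with adjusted p of 0.014 for Ciita, 0.00593 for H2-Eb1, 0.0399 for H2-Aa and 0.000436 for H2-Ob, against 7.48% of all genes. H2-Ab1, with 0.41 and an interval of -0.29 to 1.11, and Cd74, with -0.60 and an interval of -1.64 to 0.44, passed in neither fit.

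Plotted against Ciita array by array, H2-Aa and H2-Eb1 both ordered the groups as Ciita did, and H2-Ob did not. Among reporter-negative cells H2-Aa was higher in pre-CD8 than in CDP by 2.65. There the difference of H2-Eb1 was 1.29, which did not pass without the block, and that of Ciita was 0.61 and did not pass. In both of these groups Ciita read near or below the arrays' medians of 6.12 to 6.27, so its difference may be understated. H2-Ob had its highest level in the group where Ciita was 5.80 and 6.27. The 8 arrays fall into 4 groups, so no pooled correlation is given.

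**Figure D3:**
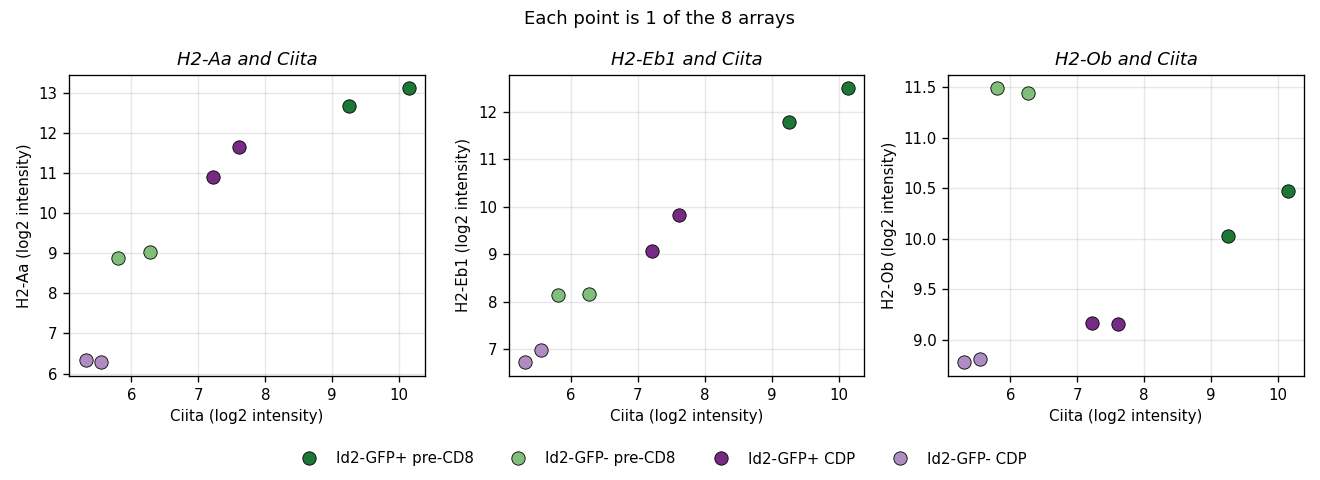
Log2 intensity of H2-Aa, H2-Eb1 and H2-Ob on the vertical axes against that of Ciita on the horizontal axis, with a point for each of the 8 arrays coloured by group. H2-Aa and H2-Eb1 are highest where Ciita is highest, at 9.25 and 10.14, whereas H2-Ob is highest, at 11.49 and 11.44, on the Id2-GFP- pre-CD8 arrays.

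The class II region of chromosome 17 also holds genes that are not of this pathway, and those measured did not pass the test. In the annotated order, H2-Oa, Brd2 and H2-DMa are followed by the H2-DMb genes, by Psmb9, Tap1, Psmb8 and Tap2 of the class I pathway, and then by H2-Ob, H2-Ab1, H2-Aa and H2-Eb1. Of 9 neighbours, 0 passed in either reporter comparison or in either comparison of stages. Over all genes 6.26% passed between reporter classes in pre-CD8 and 0.597% in CDP, in either direction. Between stages 1.63% passed in reporter-negative and 0.0% in reporter-positive cells, so 0 of 9 does not set the neighbours apart. In pre-CD8 Tap2, next to H2-Ob, differed by -0.75 ± 0.31 (adjusted p = 0.274; 0.00076 with the set as a block) and Psmb9, on the other side of Tap1, by 0.34 ± 0.19 (adjusted p = 0.502; 0.00783 with the block). Between the reporter-negative stages Tap2, at 0.70, and Tap1, at 0.40, passed under the block (adjusted p = 0.00255 and 0.00529). With the block 24.2% of all genes passed in pre-CD8 and 12.5% between these stages, in either direction. The 9 had a median of -0.07 in pre-CD8 and 0.02 in CDP. H2-Ea, the alpha chain gene of I-E, read 4.59 to 5.19 on all 8 arrays and H2-Eb2, a further beta chain gene, 5.16 to 6.14, and neither passed in any comparison. H2-DMb1 and H2-DMb2, the beta chain genes of DM, share a probe set and were not tested.

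**Figure D4:**
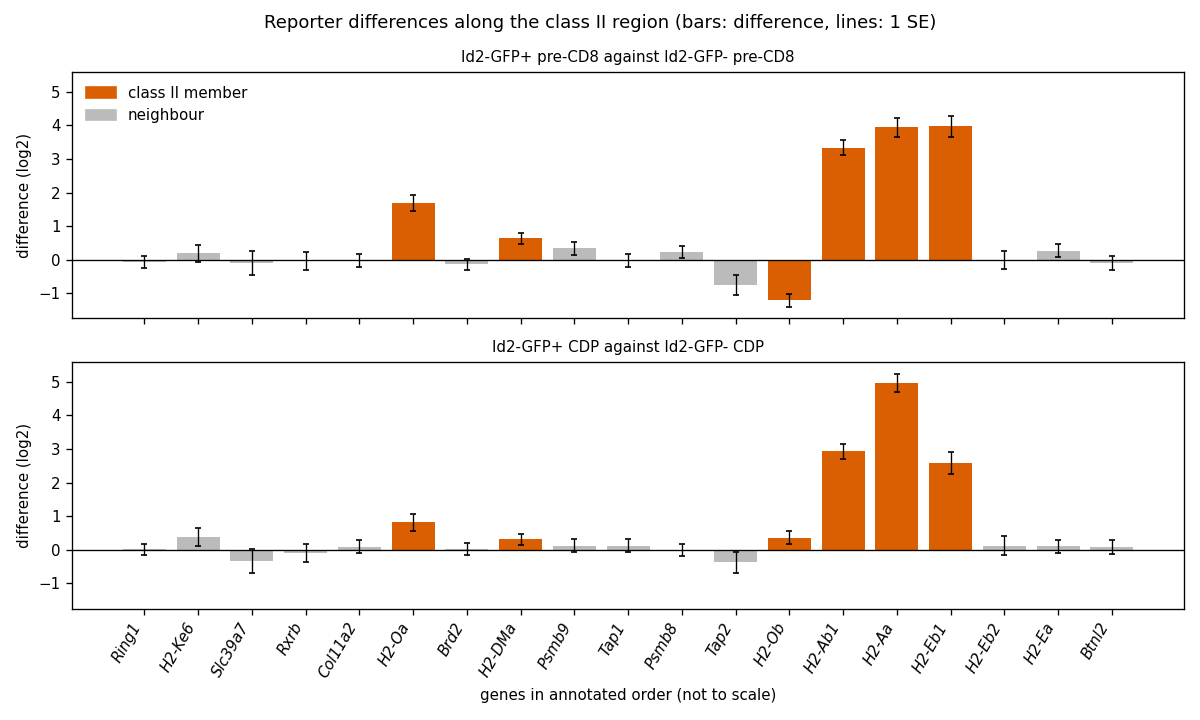
Reporter differences in log2 intensity (bars, with 1 standard error) along the region, in annotated order and not to scale, in pre-CD8 above and CDP below. Orange bars are the class II genes described here and grey bars the other genes measured. The grey bars are the 9 neighbours of the text and H2-Ke6, Col11a2 and the class II genes H2-Ea and H2-Eb2. The I-A and I-E chain genes H2-Ab1, H2-Aa and H2-Eb1 stand at 2.58 to 4.97, beside H2-Ob at -1.21 and 0.37 and grey genes that did not pass.

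Genes of the proteins on which the transactivator docks did not pass the test. Of 8 genes of the promoter complex, Rfx5, Rfxap and Rfxank of RFX, Nfya, Nfyb and Nfyc of NF-Y, and Creb1 and Atf1, 0 passed in any of the 6 comparisons of groups. Their differences ran from -0.27 for Rfxank to 0.51 for Nfyb in pre-CD8 and from -0.18 for Rfx5 to 0.36 for Nfyb in CDP. In these 6 comparisons 0.0% to 6.26% of all genes passed in either direction, so a count of 0 of 8 does not set these genes apart. With the block, Nfyb passed in pre-CD8 (adjusted p = 0.0232) and in Id2-GFP- pre-CD8 cells against Id2-GFP+ CDP, where it was lower (adjusted p = 0.0485). Under it 24.2% and 21.9% of all genes passed in these comparisons, in either direction.

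Of 11 measured regulators known to act on the promoters of Ciita, 2 were higher and 1 was lower in Id2-GFP+ pre-CD8, with a list median of -0.14, against 3.57% higher and 2.7% lower over all genes. Spi1, which encodes PU.1, was higher in Id2-GFP+ pre-CD8 by 1.44 ± 0.25 (adjusted p = 0.0117) and Irf8, which encodes a factor required for the CD8+ dendritic cell lineage, by 1.14 ± 0.22 (adjusted p = 0.0205). Tcf4, which encodes the E protein E2-2 of plasmacytoid dendritic cells, fell by 0.91 ± 0.19 (adjusted p = 0.0299). In CDP 0 of the 11 passed, with 0.25 ± 0.25 for Spi1 and 0.08 ± 0.22 for Irf8. Irf4 had differences of -0.14 ± 0.22 in pre-CD8 and 0.53 ± 0.22 in CDP. Under the block 2 were higher and 4 lower in pre-CD8, and in CDP Irf4 passed as higher (adjusted p = 0.0444) and Tcf4, at -0.50, as lower (adjusted p = 0.0344).

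Of 10 measured genes of endosomal processing, 6 were higher in Id2-GFP+ pre-CD8 cells than in Id2-GFP- pre-CD8 and 0 lower, against 3.57% and 2.7% of all genes. The median difference of the 10 was 1.02. Ctsd, which encodes cathepsin D, had a difference of -1.16 ± 0.30 (adjusted p = 0.0649), and with the set as a block 8 were higher and 1, Ctsd, lower; Ctsd was singled out after its value was seen. Ifi30, a thiol reductase of lysosomes, read 11.28 and 11.52 in Id2-GFP+ pre-CD8, against 7.20 and 7.46 in Id2-GFP- pre-CD8, a difference of 4.07 ± 0.37 (adjusted p = 0.000947). Ctsh was higher by 2.91 ± 0.29 (adjusted p = 0.00144), Cst3, an inhibitor of cathepsins, by 1.38 ± 0.11 (adjusted p = 0.000711), and Ctss, the protease known to finish the cutting of the invariant chain, by 1.14 ± 0.20 (adjusted p = 0.0117). In Id2-GFP- pre-CD8 against Id2-GFP- CDP, where H2-Aa, H2-Ab1 and Cd74 rose, 0 of the 10 rose and 3 fell, against 1.03% and 0.592% of all genes, and with the block 7 fell. The differences were -2.26 ± 0.37 for Ifi30 (adjusted p = 0.0258), -1.88 ± 0.29 for Ctsh (adjusted p = 0.0193) and -0.64 ± 0.11 for Cst3 (adjusted p = 0.0335). In Id2-GFP+ CDP against Id2-GFP- CDP 0 of the 10 passed, with 1.45 ± 0.37 for Ifi30, 0.55 ± 0.11 for Cst3 and 0.40 ± 0.20 for Ctss. With the block 2 passed there as higher, Ifi30 (adjusted p = 0.00745) and Cst3 (adjusted p = 0.000168).

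In the 2 reporter comparisons, 1 gene each of costimulation and of the class I pathway passed, both in pre-CD8. Over all genes 3.57% were higher and 2.7% lower in pre-CD8, and 0.597% and 0.0% in CDP. With the set as a block 24.2% passed in pre-CD8 and 7.85% in CDP, in either direction. Counts of 0 or 1 in such short lists do not set them apart from all genes. Icosl, the ligand of the T cell receptor ICOS, was higher in Id2-GFP+ pre-CD8 cells than in Id2-GFP- pre-CD8 by 1.99 ± 0.20 (adjusted p = 0.00145), the 1 of 6 that passed, and Cd86, a ligand of CD28, had a difference of 1.08 ± 0.28 (adjusted p = 0.0645). In CDP 0 of the 6 passed, with Cd86 at 1.49 ± 0.28 (adjusted p = 0.0884). Under the block Cd86 passed in pre-CD8 (adjusted p = 0.00179) and in CDP (adjusted p = 0.00139), as did Icosl in CDP (adjusted p = 0.0145), and Cd274 was lower in pre-CD8 (adjusted p = 0.00435). Across both axes, Cd86, by 2.50 ± 0.28 (adjusted p = 0.00524), and Icosl, by 1.56 ± 0.20 (adjusted p = 0.00905), were the 2 of 6 higher in Id2-GFP+ pre-CD8 cells than in Id2-GFP- CDP, against 1.39% of all genes. Icosl had a difference of -1.16 ± 0.20 in Id2-GFP- pre-CD8 cells against Id2-GFP+ CDP (adjusted p = 0.0142). Of 11 class I pathway genes 1 passed in pre-CD8, Tapbp, which encodes tapasin, with 1.08 ± 0.18 (adjusted p = 0.0111), and 0 in CDP, and with the block 3 were higher and 3 lower in pre-CD8 and 1 each way in CDP. Of 3 genes that act on surface class II, the ligase genes Marchf1 and Marchf8 and Cd83, 0 passed in either, and with the block Marchf1 passed as higher in both (adjusted p = 0.0343 in pre-CD8 and 0.047 in CDP).

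**Figure D5:**
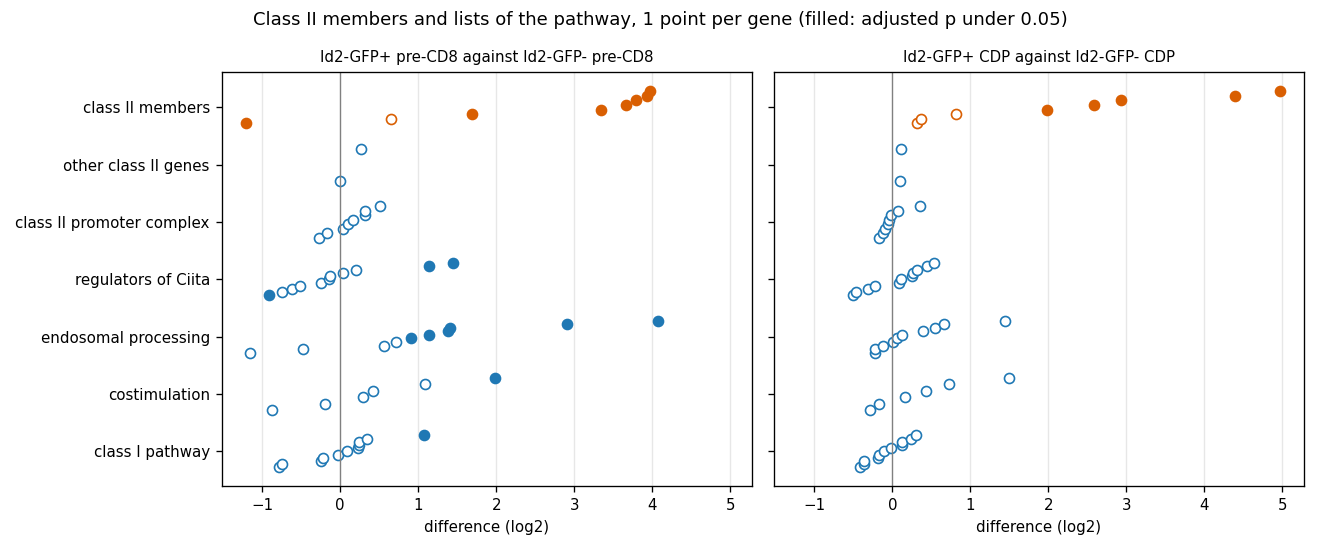
Reporter differences in log2 intensity in pre-CD8 (left) and CDP (right) for the class II genes and 6 lists of the pathway, with a point per gene, filled where the adjusted p is under 0.05. In pre-CD8 6 of 10 endosomal processing genes and 3 of 11 regulators of Ciita are filled, in CDP 0 of both, and 0 of 8 genes of the promoter complex in either. Over all genes 3.57% were higher and 2.7% lower in pre-CD8, and 0.597% and 0.0% in CDP.

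Other cells of the marrow also carry class II, and their markers were read beside these results. Over all genes 3.57% were higher and 2.7% lower in Id2-GFP+ pre-CD8 cells than in Id2-GFP- pre-CD8. The shares were 0.597% and 0.0% in Id2-GFP+ CDP against Id2-GFP- CDP, and 1.03% and 0.592% in Id2-GFP- pre-CD8 against Id2-GFP- CDP. Marker counts below stand beside these shares. The 14 B lineage markers summed to 2588 to 2754 in Id2-GFP+ pre-CD8 cells, 1559 to 1934 in Id2-GFP- pre-CD8 cells, 1677 to 1923 in Id2-GFP+ CDP and 1131 to 1345 in Id2-GFP- CDP. Cd22 alone read 10.67 and 10.80 log2 in Id2-GFP+ pre-CD8 cells, against 5.91 and 6.98 log2 in Id2-GFP- pre-CD8 cells. Without it, a sum added after the values were seen, the other 13 came to 955 to 968 in Id2-GFP+ pre-CD8 cells, 1499 to 1808 in Id2-GFP- pre-CD8 cells, 905 to 1012 in Id2-GFP+ CDP and 1034 to 1041 in Id2-GFP- CDP, so that Id2-GFP- pre-CD8 was then the highest group. In that list 3 genes were higher in Id2-GFP- pre-CD8 cells than in Id2-GFP- CDP, as H2-Ob was, and 0 were lower, against 1.03% and 0.592% of all genes. The 3 were Ebf1 by 3.18 ± 0.33 (adjusted p = 0.00396), Bank1 by 2.35 ± 0.20 (adjusted p = 0.00169) and Blk by 1.37 ± 0.22 (adjusted p = 0.0237). In pre-CD8 4 of the 14 were lower in reporter-positive cells, Ebf1 by a difference of -2.97 ± 0.33 among them, and 1 was higher, Cd22 by 4.29 ± 0.57 (adjusted p = 0.00406). The B cell genes Ms4a1, Cd79a and Cr2 read 4.17 to 4.79, 4.33 to 5.49 and 3.74 to 4.38 on all 8 arrays. These 3 were named after their values were seen. Other genes of the list read higher, with group means of 8.36 to 8.61 for Cd79b and 6.71 to 7.93 for Vpreb1. The summed intensity of the 10 markers of plasmacytoid dendritic cells measured was also highest in Id2-GFP- pre-CD8 cells, at 7207 to 8890. Their sums were 4980 to 6421 in Id2-GFP+ pre-CD8 cells, 4252 to 5670 in Id2-GFP+ CDP and 6013 to 6906 in Id2-GFP- CDP. Of these 10, 2 were higher in Id2-GFP- pre-CD8 cells than in Id2-GFP- CDP and 0 lower. All of them but Bst2, Irf7 and Spib had their highest group mean in Id2-GFP- pre-CD8 cells. Bst2 had its lowest there, at 11.25 log2. Irf7 and Spib were highest in Id2-GFP+ pre-CD8 cells, at 9.82 and 6.12 log2. No detection call was used here. The part of B lineage cells or of plasmacytoid dendritic cells in the level of H2-Ob was not tested.

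The 10 markers of mature dendritic cells summed to 1082 to 1114 in Id2-GFP+ pre-CD8 cells, 1395 to 1621 in Id2-GFP- pre-CD8 cells, 934 to 992 in Id2-GFP+ CDP and 682 to 776 in Id2-GFP- CDP, and 0 of them passed as higher in reporter-positive cells at either stage. In pre-CD8 1 was lower, Socs2, by a difference of -3.16 ± 0.16 (adjusted p = 0.000166). Without Socs2, again a sum added later, the pre-CD8 groups overlapped, at 1021 to 1052 in Id2-GFP+ pre-CD8 cells and 855 to 1058 in Id2-GFP- pre-CD8 cells. The 12 cDC1 markers summed to 18682 to 25947, 7169 to 8011, 13047 to 14098 and 9452 to 10647 in the same 4 groups, with 8 higher in pre-CD8 and 4 in CDP. The 14 neutrophil and granule markers summed to 42582 to 49513, 13503 to 17394, 61849 to 94337 and 18105 to 30736, with 10 higher and 1 lower in pre-CD8 and 9 higher in CDP.

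The 11 monocyte and macrophage markers, of cells that can carry class II as well, summed to 9145 to 9902 in Id2-GFP+ pre-CD8 cells, 2585 to 2853 in Id2-GFP- pre-CD8 cells, 12719 to 14541 in Id2-GFP+ CDP and 10379 to 11903 in Id2-GFP- CDP. Of them 3 were higher and 1 was lower in reporter-positive pre-CD8, with Ccr2 higher by 4.11 ± 0.20 (adjusted p = 0.000161), and 3 were higher in reporter-positive CDP, with Lyz2 higher by 2.83 ± 0.24 (adjusted p = 0.00196). Between the reporter-negative groups, 6 were lower in pre-CD8 than in CDP, while H2-Aa, H2-Ab1, Cd74 and H2-Ob were higher in pre-CD8. The 10 cDC2 markers summed to 3875 to 3969, 1846 to 2111, 5135 to 5944 and 2671 to 3526 in the same 4 groups, with 2 higher in pre-CD8, Cd209a and S100a4, and 0 in CDP. The 12 T and NK markers summed to 910 to 1081, 1170 to 1387, 988 to 1439 and 665 to 717, with 3 higher in pre-CD8 and 1, Ncr1, in CDP. The part of these cells in the class II differences was not tested.

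The genes nearest in pattern were found by the root mean square difference, over the 8 arrays, of log2 values centred on each gene's own mean. Nearest to the mean profile of H2-Aa, H2-Ab1, H2-Eb1 and Cd74 were Slc46a3 at 0.603, Tlr3 at 0.607, Slamf7 at 0.690, Id2 at 0.704 and Adgre5 at 0.716. Id2 is the gene whose reporter defined the sort. Nearest to Ciita were Shtn1 at 0.300, Tlr3 at 0.305, P2ry10 at 0.389, Slc46a3 at 0.399 and Clec4b1 at 0.460. Nearest to H2-Ob were Clnk at 0.281, Klf3 at 0.288, Gabbr1 at 0.293, Fcrl1 at 0.314 and Wfdc18 at 0.342, and 0 of these 5 is in either of the other 2 sets. Ranked by Pearson correlation instead, the 5 nearest shared 0, 2 and 0 genes with these 3 sets, so the names depend on the measure.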

How the data were processed

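Total RNA of 8 sorted samples was labelled with an Affymetrix kit for very small inputs, per the labels' protocols. The deposited values are linear intensity values for 28853 probe sets, which the authors made with RMA in Affymetrix Expression Console, per the submitters' processing notes; versions are not given in the sources used here. RMA compresses dim values, so differences of dim genes are understated. They were converted to log2 here and not normalized again. The design foresaw this step for a linear table. The array annotation gave 1 symbol to 21789 probe sets, several to 1621 and none to 5443; the first kind was used, with the brightest probe set per gene, for 19938 genes.

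Limma 3.58.1 in R 4.3.3 fitted 4 group means to the 8 arrays with an intensity-trended prior and 4 residual degrees of freedom, two-sided, and p-values were adjusted by Benjamini-Hochberg over all genes. The fit was checked on simulated arrays that varied independently, without the deviations shared within an intensity set. The check therefore cannot show how that sharing affects the calls. It recovered 58% of added changes of 1 log2 unit in CDP and 46% in pre-CD8, and 98% of those of 2 units in each. False calls numbered 12 and 13. The alternatives were the replicate number or the intensity set as a block, quantile normalization, no trend, a filter on dim genes, only the groups compared, other probe set rules, and leaving out each array. Same-numbered arrays correlated at -0.685 to -0.626 between reporter classes and at 0.69 and 0.713 within them, so the numbers do not pair the samples. Genes named are the 8 class II genes, up to 4 of each list by smallest p over the 6 comparisons, all of the promoter complex, and 5 nearest to each of 3 profiles; genes outside this rule were named after their values were seen. The genes and lists were chosen with earlier results of these data known. Promoters came from RefSeq (GRCm38.p6). Python 3.11.15 prepared data and figures.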

Additional observations from a re-analysis of the deposited data

Results flagged for a closer look

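The reporter difference in pre-CD8 minus that in CDP differed from 0 for 4 of the 8 class II genes when the intensity set was a block in the limma fit, and for 0 without it. The values were 1.68 for Ciita, with reporter differences of 4.34 in pre-CD8 and 2.06 in CDP on the brighter arrays, and of 2.98 and 1.90 on the dimmer arrays. They were 1.39 for H2-Eb1, -1.03 for H2-Aa and -1.58 for H2-Ob. Each of these 4 had the same sign within the brighter and within the dimmer arrays: 2.28 and 1.08 for Ciita, 1.51 and 1.27 for H2-Eb1, -1.14 and -0.91 for H2-Aa, and -1.36 and -1.80 for H2-Ob. The genotype entries of the Id2-GFP- CDP samples differ from all others, so stage and genotype entry cannot be told apart in these values.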

How the results depend on the processing

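The number of class II genes called changed most among reporter-positive cells, Id2-GFP+ pre-CD8 against Id2-GFP+ CDP. It was 0 in the fit without a block, beside 0 of all 19938 genes, and 7 with the intensity set block, beside 414. After quantile normalization it was 4, beside 24 of all genes, and with the filter on dim genes 2, beside 10 of 9969. Id2-GFP- pre-CD8 against Id2-GFP+ CDP gave 5, beside 975 of all genes, and 8 with the set block, beside 4376. The interaction gave 0, beside 29 of all genes, then 4 with the set block, beside 1492, and 1 after quantile normalization, beside 202. With the replicate number as a block the counts were 4 in CDP and 7 in pre-CD8 for the reporter, 4 and 0 for the stages in reporter-negative and reporter-positive cells, 7 for Id2-GFP+ pre-CD8 against Id2-GFP- CDP and 4 for Id2-GFP- pre-CD8 against Id2-GFP+ CDP, and 0 for the interaction. Leaving out 1 array gave 3 to 5 genes for the reporter in CDP, 6 to 7 in pre-CD8, 3 to 4 and 0 to 0 for the stages, 5 to 7 and 2 to 5 for these 2 pairs, and 0 to 0 for the interaction. H2-DMa in Id2-GFP- pre-CD8 against Id2-GFP- CDP, at -0.05, was 0.0541 after quantile normalization and between -0.1027 and 0.0097 with 1 array left out, the positive value without Id2-GFP- pre-CD8 replicate 2. The causes were not tested. Over all genes the calls in CDP were 119 higher and 0 lower, against 735 and 831 with the set block, and those in pre-CD8 were 711 and 538, against 2197 and 2625. With the replicate number as a block the calls over all genes, in the order given above, were 85 and 838, 157 and 0, 208 and 642, and 6. No background measure was used here, and 2 arrays per group limit what small differences, such as those of H2-DMa, can show.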

Other observations

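Other genes with the promoter pair of GCAAC and ATTGG were called about as often as all genes. Of 133 such genes measured besides the 8, 1 was higher and 0 lower in Id2-GFP+ CDP cells than in Id2-GFP- CDP, against 0.597% and 0.0% of all genes, with a median difference of -0.05. In pre-CD8 4 were higher and 4 lower in Id2-GFP+ pre-CD8 cells than in Id2-GFP- pre-CD8, against 3.57% and 2.7% of all genes, with a median of 0.00. The gene higher in CDP was Fcrla, named after its value was seen. Of markers of plasmacytoid dendritic cells (pDC) 4 of 10, and of progenitor markers 7 of 9, were lower in Id2-GFP+ pre-CD8 cells than in Id2-GFP- pre-CD8, against 2.7% of all genes, and 0 of either list were higher, against 3.57%.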
